A study of Mus musculus with 6 samples.

Results

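The 10 endothelial identity genes described here are Cldn5, Pecam1, Cdh5, Tie1, Emcn, Esam, Egfl7, Erg, Sox17 and Sox18. They were taken from the deposited expression table by gene name, as a fixed list of markers of vascular endothelium. All 10 were found among 21900 distinct gene symbols, and all 10 were among the 10787 genes that passed the filter on low values.

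Endothelial cells line blood and lymphatic vessels and are held together by adherens and tight junctions, which VE-cadherin, claudin-5, PECAM-1 and ESAM help to form. Their identity is maintained by transcription factors of the ETS family, such as Erg, and of the SoxF group, to which Sox17 and Sox18 belong. Adipose tissue is densely vascularised, and in cold-exposed fat the capillary bed carries fuel and heat to and from thermogenic adipocytes.

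RNA came from inguinal white adipose tissue, the subcutaneous depot of the groin, of C57BL/6 mice aged 2 months. The Foxp4 knockout group (3 samples) has the genotype Foxp4AdipoQdelta/delta, a name that stands for deletion of the forkhead transcription factor gene Foxp4 in mature adipocytes, where the promoter of the adiponectin gene AdipoQ is active. The control group (3 samples) has the genotype Foxp4fl/fl, and its labels name no Cre. Mice of both groups were housed at 22 °C on chow and then kept at 4 °C for 7 days, so no library comes from fat that was not cold-exposed. The RNA is of whole tissue, so the genes below were read mainly from cells that the deletion was not aimed at. A presence of Cre and the loss of Foxp4 go together in these groups and cannot be told apart. The comparison asks whether the endothelial transcripts of cold-exposed fat differ when adipocytes lack Foxp4.

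Values are FPKM, which scales the fragments of a gene to its exon length and to the size of the library. They correspond to 13175930 to 16000902 reads recovered per library, and 10405 to 10902 genes per library reached 1 FPKM. Foxp4 itself stood at 1.92, 1.71 and 1.64 FPKM in the knockouts, against 5.76, 4.01 and 4.62 FPKM in the controls, and the groups did not overlap (log2 fold change -1.06, SE 0.12, adjusted p = 0.070 in limma). Adipocyte markers were abundant in every library (Adipoq 823 to 935 FPKM in knockouts and 1150 to 1286 FPKM in controls), whereas the 6 epithelial markers summed to 0.17 to 0.70 FPKM in knockouts and 0.43 to 1.26 FPKM in controls, with Krt14 listed at 0 throughout. Whether each sample is 1 animal or several is not stated in the labels, and a p-value here reflects the spread among these 6 libraries, which may be technical.

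The promoter sequence of 4 of the genes is shown as a description. Whether promoters bear on how the 10 genes varied together across libraries, described below, was not tested. RefSeq windows (build GRCm38.p6, 250 bases before to 50 after an annotated start) were found for 5 members, namely Cldn5, Egfl7, Emcn, Erg and Tie1, with 9 windows in all. The windows were searched on both strands for the ETS motif AGGAAG, the SOX motif AACAAT, the forkhead motif TGTTTAC and the combined forkhead and ETS motif GGATGTT. Each window is printed 5′ to 3′ on the strand of its gene, with matches in capitals. They are chr4:118489800-118490099 (minus strand) for Tie1, chr3:137340828-137341127 (plus strand) for Emcn, chr2:26580833-26581132 (plus strand) for the Egfl7 start with the most ETS matches, and chr16:18776597-18776896 (plus strand) for Cldn5.
Tie1: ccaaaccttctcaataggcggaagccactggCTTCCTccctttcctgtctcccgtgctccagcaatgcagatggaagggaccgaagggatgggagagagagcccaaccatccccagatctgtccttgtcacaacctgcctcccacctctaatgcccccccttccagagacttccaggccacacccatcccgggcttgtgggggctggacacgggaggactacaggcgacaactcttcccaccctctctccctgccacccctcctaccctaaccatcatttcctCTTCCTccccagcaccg
Emcn: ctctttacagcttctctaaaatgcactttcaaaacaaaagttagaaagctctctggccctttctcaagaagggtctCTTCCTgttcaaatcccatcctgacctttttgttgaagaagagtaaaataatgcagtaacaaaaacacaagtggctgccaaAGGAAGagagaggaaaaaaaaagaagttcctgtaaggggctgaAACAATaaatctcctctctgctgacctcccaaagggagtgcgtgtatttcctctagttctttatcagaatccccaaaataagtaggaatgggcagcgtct
Egfl7: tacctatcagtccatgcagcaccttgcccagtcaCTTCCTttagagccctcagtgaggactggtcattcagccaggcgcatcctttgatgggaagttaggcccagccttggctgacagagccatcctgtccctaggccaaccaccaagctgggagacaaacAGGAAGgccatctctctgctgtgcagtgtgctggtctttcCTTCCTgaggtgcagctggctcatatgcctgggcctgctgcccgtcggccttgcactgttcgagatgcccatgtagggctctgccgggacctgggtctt
Cldn5: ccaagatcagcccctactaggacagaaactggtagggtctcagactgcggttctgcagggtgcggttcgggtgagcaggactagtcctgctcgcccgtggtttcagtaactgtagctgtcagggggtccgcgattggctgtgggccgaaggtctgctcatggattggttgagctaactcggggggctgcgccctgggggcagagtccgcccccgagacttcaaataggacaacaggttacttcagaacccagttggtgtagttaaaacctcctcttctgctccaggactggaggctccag

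The ETS motif was present in 5 of the 9 windows, at starts of 4 of the 5 genes (Egfl7, Emcn, Erg and Tie1), whereas 35.4% of all 32851 promoter windows hold it. The Tie1 window above holds its reverse complement (CTTCCT) near both ends, and the Emcn window holds it on either strand together with 1 SOX match. The SOX motif was found in 2 of the 9 windows, against 10.7% of all windows. The forkhead motif, present in 3.65% of all windows, and the combined motif, present in 2.65%, were found in 0 of the 9. A match here describes the letters of the window and shows no binding.

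The junction and adhesion genes included the 3 most abundant of the 10, Cldn5, Cdh5 and Pecam1. Cdh5 (chromosome 8, 104101625 to 104144511, plus strand, mm10) encodes VE-cadherin, the cadherin of endothelial adherens junctions. It stood at 27.2, 34.2 and 29.5 FPKM in the knockouts, against 24.1, 21.2 and 49.0 FPKM in the controls. The third control was thus far above the rest, and the 3 knockouts lay between it and the other controls. Cldn5 (chromosome 16, 18776847 to 18778262, plus strand), the claudin of endothelial tight junctions, stood at 28.8, 54.1 and 44.7 FPKM in the knockouts, against 28.6, 35.0 and 62.5 FPKM in the controls. The first library was the lowest of its group in both genotypes, and the groups overlapped over nearly their whole range. Pecam1 (chromosome 11, 106654217 to 106750628, minus strand) encodes the adhesion molecule CD31, which platelets and leukocytes also carry. It stood at 16.6, 21.6 and 15.7 FPKM in the knockouts, against 16.4, 16.3 and 28.9 FPKM in the controls. Apart from the second knockout and the third control, the libraries differed by less than 1 FPKM. Esam (chromosome 9, 37528078 to 37538319, plus strand), an immunoglobulin-type adhesion molecule of endothelial junctions and platelets, stood at 16.5, 13.8 and 14.1 FPKM in the knockouts, against 12.1, 13.1 and 25.0 FPKM in the controls. All 3 knockouts exceeded the first and second controls and none reached the third.

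The receptor, surface and secreted genes were likewise highest in the third control. Tie1 (chromosome 4, 118471191 to 118490061, minus strand) encodes the receptor tyrosine kinase that partners the angiopoietin receptor Tek. It stood at 7.98, 9.53 and 7.09 FPKM in the knockouts, against 7.41, 6.68 and 16.9 FPKM in the controls. The third control was 2.40 times the mean of the other controls, the highest such ratio of the 10 genes. Emcn (chromosome 3, 137341067 to 137432185, plus strand), a sialomucin of capillary and venous endothelium, stood at 3.73, 4.27 and 2.94 FPKM in the knockouts, against 2.30, 3.35 and 4.56 FPKM in the controls. Here the third control was only slightly above the second knockout. Egfl7 (chromosome 2, 26580014 to 26593120, plus strand) encodes a secreted protein of the vascular matrix. It stood at 10.5, 12.5 and 10.3 FPKM in the knockouts, against 9.67, 8.31 and 15.9 FPKM in the controls, again with every knockout between the third control and the other controls. Egfl7 shares 64 exon bases with Agpat2 on the opposite strand and 264 with Gm20532 on its own strand, and how the counting treated shared bases is not given in the sources used here.

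Egfl7 is also the host of miR-126, an endothelial microRNA, whose mature 3p arm is shown with its seed (bases 2 to 8) in capitals, from RefSeq at chr2:26591402-26591423, plus strand. The libraries were made from mRNA, and the value above is that of the host gene.
miR-126a-3p: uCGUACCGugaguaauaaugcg

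Among the transcription factors, Sox17 was the exception of the 10 genes. Erg (chromosome 16, 95359169 to 95586593, minus strand), the ETS factor that sustains junction genes in endothelium, stood at 4.21, 5.11 and 4.37 FPKM in the knockouts, against 4.16, 4.44 and 8.23 FPKM in the controls. Sox18 (chromosome 2, 181669836 to 181671640, minus strand), a SoxF factor of blood and lymphatic vessel development, stood at 13.7, 20.4 and 13.7 FPKM in the knockouts, against 12.5, 14.0 and 21.4 FPKM in the controls. For both genes the third control was the highest library and the groups overlapped. Sox17 (chromosome 1, 4490931 to 4497354, minus strand), the SoxF factor associated with arterial endothelium, stood at 2.54, 2.60 and 2.23 FPKM in the knockouts, against 3.20, 2.68 and 5.34 FPKM in the controls. Every knockout lay below every control, as in 22.7% of all genes tested. The second knockout and the second control differed by less than 0.1 FPKM. These values rest on 179, 165 and 161 reads in the knockouts and 215, 187 and 411 reads in the controls, the fewest of the 10 genes in the knockouts. Sox17 shares 804 exon bases with the antisense gene Gm37587, whose reads may not have been kept apart.

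**Figure D1:**
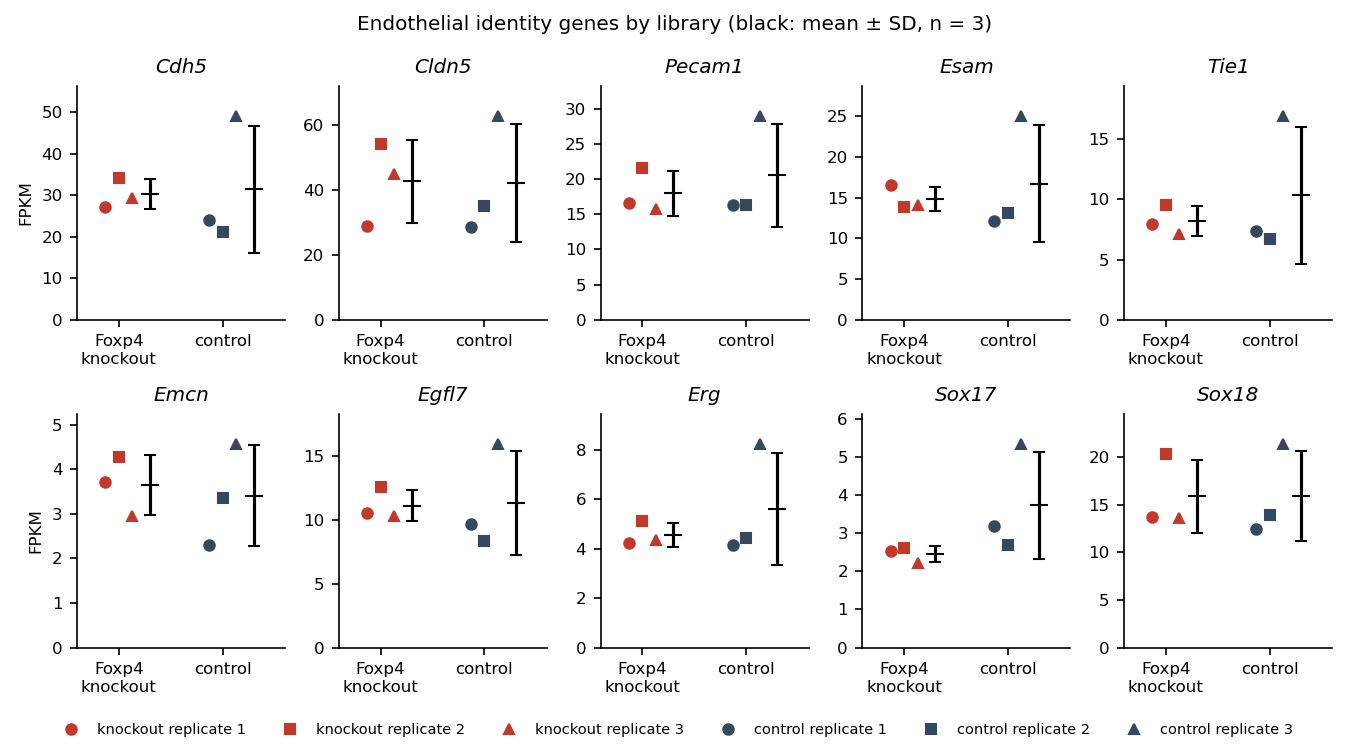
FPKM of each endothelial identity gene (vertical axis, starting at 0) in the 3 Foxp4 knockout libraries (left, red) and the 3 control libraries (right, dark), with replicates told apart by marker shape and the mean ± SD in black. The third control is the highest library in all 10 genes. Sox17 is the gene in which the groups do not overlap, with knockouts lower, as in 22.7% of all genes tested.

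Because FPKM is a level per exon length, the genes can be set in order. Over the 6 libraries Cldn5 had the highest mean (42.3 FPKM), followed by Cdh5 (30.9), Pecam1 (19.2), Sox18 (15.9), Esam (15.8), Egfl7 (11.2), Tie1 (9.26), Erg (5.09), Emcn (3.53) and Sox17 (3.10). Most neighbours in this order kept their order in 6 of 6 libraries. The exceptions were Sox18 and Esam (3 of 6), Egfl7 and Tie1 (5 of 6) and Emcn and Sox17 (4 of 6), whose levels do not differ beyond the spread between libraries.

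The third control library stood apart in these genes. It was the highest of the 6 libraries in 10 of 10 members, whereas it was highest in 34.5% of all genes tested. Relative to the mean of the other controls, it was 1.61 (Sox18) to 2.40 (Tie1) times as high, with a median of 1.87 over the members and 1.06 over all genes tested. Of all genes tested, 6.54% had a ratio at least as large as the smallest of the members. The second knockout ranked second in 8 of the 10 genes. The summed level of the 10 genes was 132, 178 and 145 FPKM in the knockouts, against 120, 125 and 238 FPKM in the controls.

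The spread within the controls came from the third library. The coefficient of variation (SD over mean, n = 3) of the members was 8.13 to 30.1% in the knockouts and 29.8 to 55.1% in the controls, and was larger in the controls for 10 of 10 genes. Without the third control it was 0.46 (Pecam1) to 26.4% (Emcn) in the controls, and larger than in the knockouts for 2 of 10 genes, Emcn and Sox17. Over all genes tested its median was 8.84% in the knockouts and 11.4% in the controls. Counting error alone, at the mean read number of each gene in the knockouts, would give 2.34 (Cdh5) to 7.71% (Sox17). The knockout spread of Sox17 (8.13%) was thus near its counting error, whereas that of Cldn5 (30.1%) was far above it (3.41%). In whole tissue, fewer cells of a type and less RNA per cell cannot be told apart, here and in all results below.

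No member passed the test of genotype across all genes (limma on log2(FPKM + 1), two-sided, Benjamini-Hochberg adjustment over 10787 genes). At an adjusted p of 0.05, 0 of 10 passed, as against 1 of all genes tested (0.00927%). The same count over the members, 0 of 10, came from limma's voom method on the recovered reads. At an unadjusted p of 0.05, 0 of 10 were lower in knockouts, while 17.1% of all genes tested were, and 0 of 10 were higher, while 6.98% of all genes tested were. That split of all genes, 1848 lower and 753 higher, was 1005 lower and 1401 higher under median-of-ratios scaling, and 1130 lower and 1285 higher under upper-quartile scaling. The fitted log2 fold changes (knockout over control) were divided, 5 above and 5 below 0, with a median of -0.043 against -0.082 over all genes tested. The summed FPKM of the 10 genes averaged 152 ± 23.97 in knockouts and 161 ± 66.4 in controls (SD, n = 3), a difference of -9.50 FPKM that is smaller than the SD of either group. Mean levels were close between groups for Cldn5 (42.6 ± 12.8 FPKM in knockouts and 42.0 ± 18.0 FPKM in controls), Cdh5 (30.3 ± 3.56 and 31.4 ± 15.3 FPKM), Egfl7 (11.1 ± 1.25 and 11.3 ± 4.04 FPKM) and Sox18 (15.9 ± 3.85 and 15.9 ± 4.76 FPKM).

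These values leave room for moderate differences. The 95% interval of the log2 fold change ran from -0.64 to 0.72 for Cdh5 and from -0.71 to 0.81 for Cldn5. The narrowest intervals were those of Sox17 and Emcn (-0.37 to 0.57). Tie1 (8.20 ± 1.23 FPKM in knockouts and 10.3 ± 5.68 FPKM in controls) had -0.20 (SE 0.31, adjusted p = 0.72 in limma), and Erg (4.56 ± 0.48 and 5.61 ± 2.28 FPKM) had -0.20 (SE 0.22, adjusted p = 0.59). Sox17 had the largest fitted difference, -0.42 (SE 0.19, 95% interval -0.87 to 0.04), at 2.46 ± 0.20 FPKM in knockouts and 3.74 ± 1.41 FPKM in controls. Its unadjusted p was 0.068 and its adjusted p 0.24 in limma. It was the 1 member of 10 whose groups did not overlap, lower in knockouts, which 22.7% of all genes tested also showed (8.48% were higher without overlap).

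The lean of the members depended on which library was left out. Without the third control 9 of the 10 fitted log2 fold changes were above 0, with a median of 0.22 against -0.051 over all genes. Without the first control 10 of 10 were below 0 (median -0.23), without the second control 9 of 10 (-0.21), and without the second knockout 9 of 10 (-0.16). In the fit without the third control, Cdh5 had 0.40 (SE 0.12, 95% interval 0.11 to 0.69) and was the 1 member that was higher at an unadjusted p of 0.05, where 8.33% of all genes tested were; its adjusted p in limma was 0.14. Over the mean of the first and second controls, the knockout mean was 1.34 times as high for Cdh5 and Cldn5, 1.06 times for Erg and 0.84 times for Sox17. Sox17 kept a negative value (-0.19, SE 0.11) in this fit. The smaller number of controls leaves the first and second controls as the only reference, and no member passed an adjusted p of 0.05 with or without the third control.

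**Figure D2:**
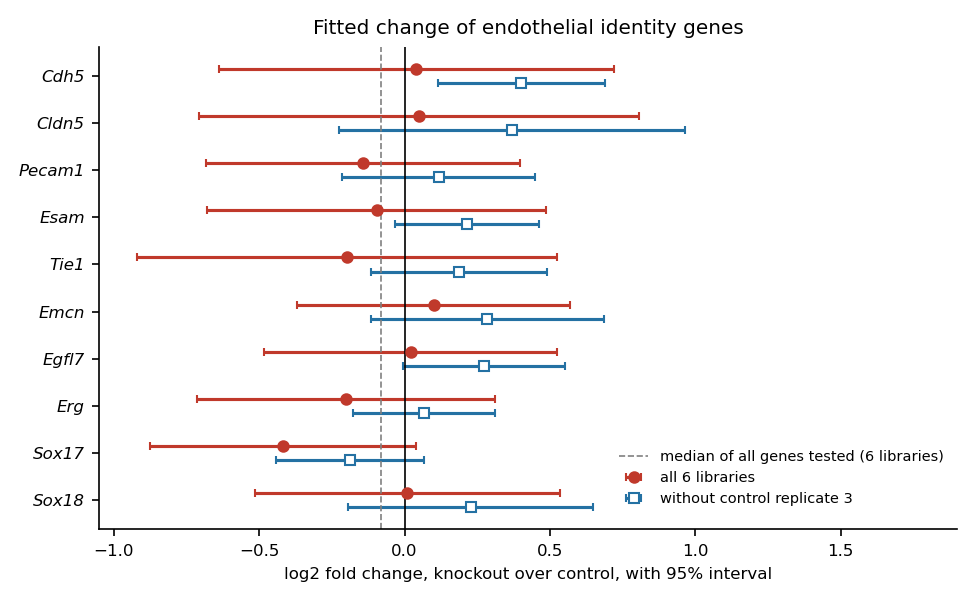
Fitted log2 fold change of each gene, knockout over control, with its 95% interval (horizontal axis) in limma over all genes, for all 6 libraries (filled circles) and without the third control (open squares). With all libraries each interval spans 0; without the third control 9 of 10 values are above 0 and the interval of Cdh5 lies above 0.

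Each member was next set against the rest of the endothelial transcripts of its own library. The yardstick was the geometric mean of 24 other pan-endothelial genes, such as Kdr, Tek, Eng and Plvap, which was 7.00, 7.63 and 6.46 FPKM in the knockouts, against 6.95, 5.89 and 11.1 FPKM in the controls. Dividing by it narrowed the spread over the 6 libraries for 10 of 10 members. The coefficient of variation was 23.9 to 41.7% for FPKM and 6.88 to 23.2% for the ratio. The yardstick was itself highest in the third control, as every member was. Division by it can therefore narrow any gene that is high in that library, whatever its cell type. The share of all genes so narrowed was not counted. The ratio of Pecam1 was 2.37, 2.83 and 2.43 in knockouts, against 2.36, 2.76 and 2.60 in controls, and that of Tie1 was 1.14, 1.25 and 1.10 in knockouts, against 1.07, 1.14 and 1.52 in controls. On this relative scale the third control was the highest library for Tie1 and Sox17 alone among the 10 genes.

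Among the members, Sox17 stood apart on the same scale. Its ratio was 0.362, 0.341 and 0.345 in the knockouts, against 0.460, 0.456 and 0.481 in the controls, so that the third control was close to the other controls and every knockout lay below them. The knockout mean ratio (0.350 ± 0.011) was 0.751 times the control mean ratio (0.466 ± 0.013, SD, n = 3). Egfl7 had the opposite placing, with 1.497, 1.64 and 1.59 in the knockouts, against 1.39, 1.41 and 1.43 in the controls. Groups without overlap on this scale were found for 3.07% of all genes tested, lower in knockouts, and for 5.34%, higher in knockouts. The exact permutation test of 3 against 3 cannot go below 0.10. In limma on the rescaled values, the log2 fold change of Sox17 was -0.31 (SE 0.23, 95% interval -0.76 to 0.14), with an unadjusted p of 0.18 and an adjusted p of 1.0 across all genes. This rescaling was chosen after the values were seen, and neither Sox17 nor Egfl7 (log2 fold change 0.15) passed the limma test on it. That fit took the SE of a gene from the trend over all genes, not from the spread of its own ratios. It therefore cannot decide whether either gene differed on this scale. Without the third control, rescaling gave Sox17 -0.29 (SE 0.14, unadjusted p = 0.055, adjusted p = 0.23 in limma) and Egfl7 0.15 (SE 0.14). In the fit with all libraries, genes of the other endothelial lists were also lower than Sox17. They were Lyl1 (-0.49), Ackr1 (-0.44), Lrg1 (-0.44), Lyve1 (-0.43), Vwf (-0.41), Klf4 (-0.38), Pdpn (-0.38), Tek (-0.34) and Gja4 (-0.32).

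**Figure D3:**
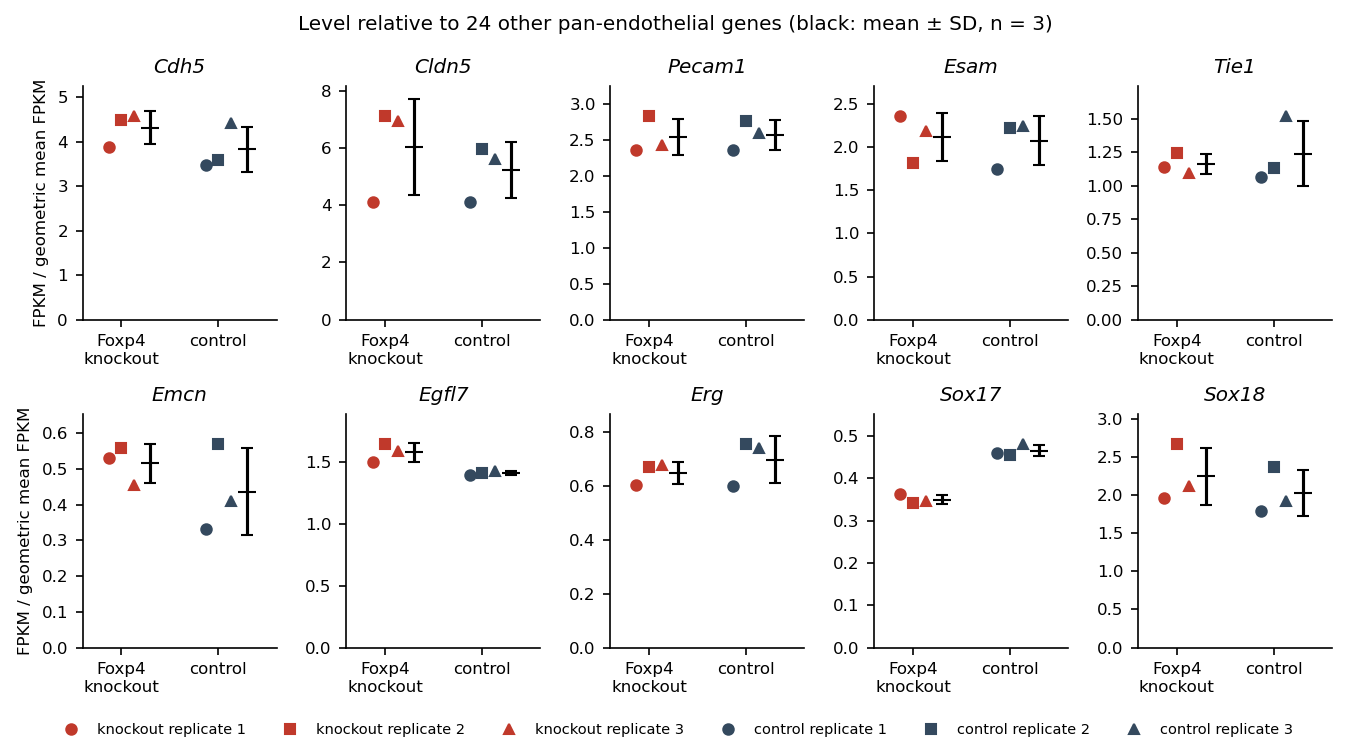
FPKM of each gene divided by the geometric mean FPKM of 24 other pan-endothelial genes in the same library (vertical axis, starting at 0), for the 3 Foxp4 knockout libraries (left, red) and the 3 control libraries (right, dark), with the mean ± SD in black. The knockout ratios of Sox17 (0.341 to 0.362) lie below its control ratios (0.456 to 0.481), the knockout ratios of Egfl7 lie above its control ratios, and the groups of the other 8 genes overlap.

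Other endothelial genes were read in lists by role. Of the 24 other pan-endothelial genes, all tested, 0 were called over all genes. At an unadjusted p of 0.05 in knockouts, 2 were lower and 0 higher, against 17.1% and 6.98% of all genes tested. The median log2 fold change of the 24 was -0.12. Without the third control that median was 0.087, with 16 of 24 above 0. In that fit 0 were lower and 3 higher at the same p, against 14.1% and 8.33% of all genes tested. The third control was the highest library in 23 of the 24. The 4 most abundant were Plvap, of fenestral diaphragms (19.9 FPKM in knockouts and 28.1 FPKM in controls), Eng, a TGF-beta co-receptor (19.7 and 21.6 FPKM), the adhesion receptor Adgrf5 (15.9 and 20.8 FPKM) and the sphingosine phosphate receptor S1pr1 (16.2 and 19.6 FPKM). The 2 lower genes were Adgrf5 (log2 fold change -0.36, adjusted p = 0.20 in limma) and Tek, the angiopoietin receptor that partners Tie1. Tek stood at 7.79, 9.51 and 10.2 FPKM in knockouts, against 10.97, 11.8 and 16.7 FPKM in controls, without overlap (-0.46, adjusted p = 0.16 in limma). Of all genes tested, 22.7% were lower without overlap.

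Of 12 further endothelial transcription factors, 9 were tested. At an unadjusted p of 0.05, 2 of them were lower in knockouts and 0 higher, against 17.1% and 6.98% of all genes tested. Without the third control 1 was lower and 1 higher, against 14.1% and 8.33% of all genes tested. The shear-responsive factor Klf4 had 11.9 FPKM in knockouts and 17.7 FPKM in controls, and Lyl1, a factor shared with blood cells, had 3.78 and 6.39 FPKM. Klf2 (13.2 and 17.7 FPKM), Ets1 (6.34 and 6.93 FPKM) and Fli1, an ETS relative of Erg (4.66 and 6.11 FPKM), had overlapping groups. Sox7, the remaining SoxF gene, had 3.65, 4.93 and 2.90 FPKM in knockouts, against 2.78, 2.61 and 4.83 FPKM in controls, an arrangement like that of Sox18 and unlike that of Sox17. Of 12 partners of the junction proteins, 10 were tested and 0 were lower or higher at an unadjusted p of 0.05. Among them the catenin genes Ctnna1 (61.2 FPKM in knockouts and 53.7 FPKM in controls) and Ctnnb1 (49.0 and 44.3 FPKM) and the junction genes F11r (18.1 and 18.0 FPKM) and Jup (10.03 and 12.3 FPKM) are also expressed outside endothelium.

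Genes of vessel segments were read separately. Of 7 tested arterial genes 0 were lower or higher at an unadjusted p of 0.05, with a median log2 fold change of 0.042. Gja4, a connexin gene of arteries, had 3.16 FPKM in knockouts and 4.84 FPKM in controls, while Sema3g (5.75 and 6.38 FPKM), Notch4 (3.26 and 2.87 FPKM) and Dll4 (2.63 and 2.54 FPKM) had near means. Of 6 capillary genes 1 was lower at an unadjusted p of 0.05, which 17.1% of all genes tested were. Of the 6 log2 fold changes, 4 were below 0 and 2 above, with a median of -0.19. The lower gene was the mucin-like Cd300lg (30.0 FPKM in knockouts and 39.5 FPKM in controls). Rgcc (307 and 285 FPKM), Aqp1 (57.2 and 73.6 FPKM) and Gpihbp1, the lipoprotein lipase anchor (28.3 and 26.9 FPKM), overlapped between groups. Of 5 tested venous genes 3 were lower at an unadjusted p of 0.05, which 17.1% of all genes tested were, with a median of -0.52. Under median-of-ratios scaling Lrg1 no longer passed, leaving 2 of 5, against 9.32% of all genes tested. Without the third control 2 were lower, against 14.1% of all genes tested, with a median of -0.38. The 3 genes were Lrg1 (73.9 FPKM in knockouts and 110 FPKM in controls), the chemokine-binding receptor Ackr1 (3.86 and 6.18 FPKM) and Vwf, von Willebrand factor (2.42 and 3.92 FPKM), with adjusted p of 0.17, 0.12 and 0.10 in limma. Vwf stood at 2.66, 2.16 and 2.43 FPKM in knockouts, against 3.50, 3.38 and 4.89 FPKM in controls, so its groups did not overlap. Lrg1 had overlapping groups, and Ephb4 (6.79 and 8.29 FPKM) overlapped too. Lrg1 made up most of the summed venous level (89.1 FPKM in knockouts and 132 FPKM in controls). From which cells of the tissue its transcript came was not tested. Of 7 lymphatic genes only Lyve1 (14.4 FPKM in knockouts and 22.2 FPKM in controls) and Pdpn (3.95 and 6.02 FPKM) passed the filter, and both were lower at an unadjusted p of 0.05 without overlap, against 17.1% of all genes tested that were lower and 22.7% that were lower without overlap. Macrophages carry Lyve1 and fibroblasts carry Pdpn, and the more restricted Flt4 (0.95 and 0.91 FPKM) and Mmrn1 (0.53 and 0.70 FPKM) overlapped. None of these genes passed over all genes tested, and the difference between vessel segments was not tested.

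Several lists of other cells were also highest in the third control. The 11 mural cell genes, of pericytes and smooth muscle, summed to 92.7 to 102 FPKM in knockouts and 75.2 to 163 FPKM in controls, with the third control highest. Of them 9 were tested and 0 were lower or higher at an unadjusted p of 0.05, and the pericyte gene Rgs5 had 32.3, 44.7 and 33.5 FPKM in knockouts, against 28.4, 25.8 and 69.9 FPKM in controls. The 8 leukocyte genes summed to 32.9 to 37.1 FPKM in knockouts and 43.6 to 63.8 FPKM in controls, with 3 of 6 tested lower at an unadjusted p of 0.05, and the 6 progenitor and fibroblast genes summed to 482 to 563 FPKM in knockouts and 565 to 870 FPKM in controls, with 4 of 6 lower, or 1 of 6 without the third control. The 6 platelet genes summed to 30.1 to 33.7 FPKM in knockouts and 36.5 to 57.3 FPKM in controls, nearly all of it Pf4 (29.5 FPKM in knockouts and 43.4 FPKM in controls on average). The other 5 platelet genes stood at or below 1.95 FPKM in every library, and of them Itga2b was highest in the third control, at 1.08 FPKM. The 8 adipocyte genes summed to 8464 to 9205 FPKM in knockouts and 11178 to 12018 FPKM in controls, with the third control the lowest of its group, and 3 of 8 were lower at an unadjusted p of 0.05. Of all genes tested, 17.1% were lower at that p, 14.1% without the third control and 9.32% under median-of-ratios scaling. Erythroid genes summed to 580 to 1100 FPKM in knockouts and 977 to 1952 FPKM in controls, highest in the first control, and muscle genes to 18.5 to 274 FPKM and 14.6 to 60.9 FPKM, highest in the third knockout. The part of any of these in the endothelial values was not tested.

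**Figure D4:**
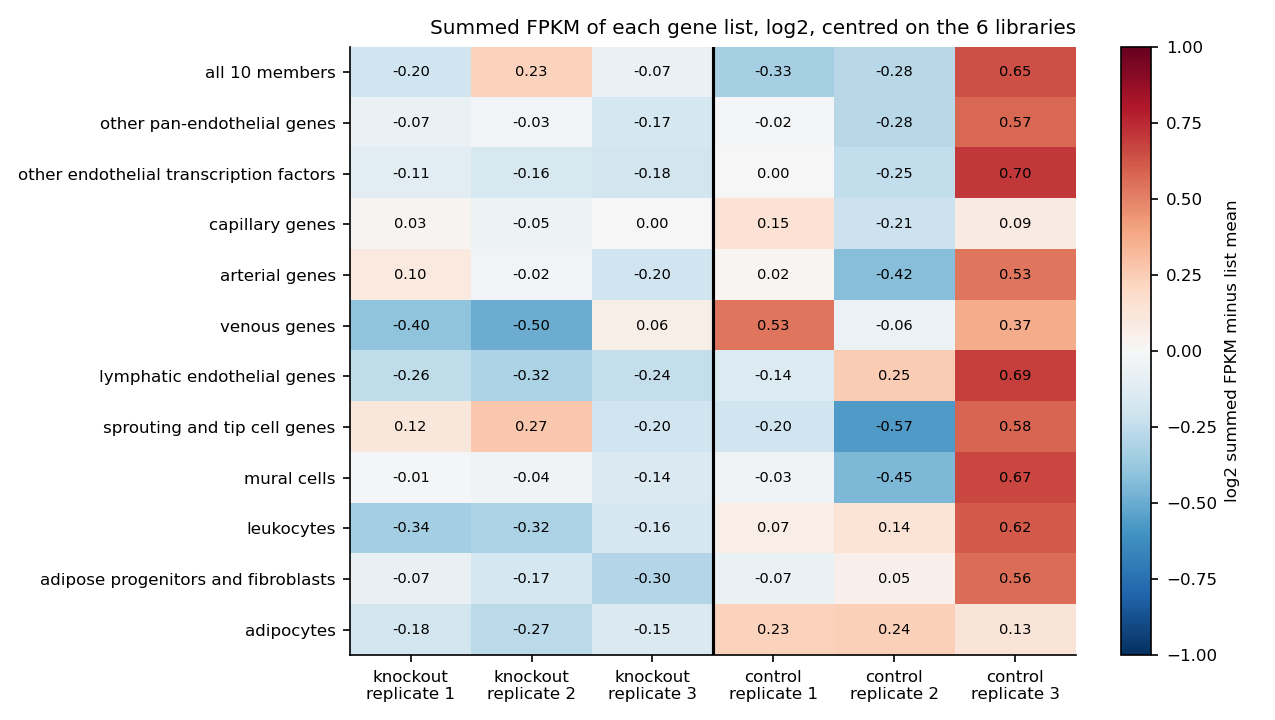
Summed FPKM of 12 gene lists (rows) in the 3 knockout and 3 control libraries (columns, separated by the black line), as log2 values minus the mean log2 value of the list over the 6 libraries. The third control is the highest library for the 10 members (0.65), the other pan-endothelial genes (0.57) and mural cells (0.67). It is also highest for other endothelial transcription factors (0.70), arterial (0.53), lymphatic (0.69) and sprouting genes (0.58), leukocytes (0.62), and progenitors and fibroblasts (0.56). It is not highest for the sums of adipocyte, capillary or venous genes. Abundant genes weigh most in a sum. Gene by gene, the third control was highest in 5 of 6 capillary genes and 3 of 5 tested venous genes.

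The members followed each other across libraries. Over the 6 libraries, Pearson's r between a member's log2(FPKM + 1) and the mean of the other 9 was 0.98 for Pecam1, 0.97 for Tie1 and Erg, 0.95 for Cdh5 and Egfl7, and lowest for Sox17 and Emcn (0.75 each). Outside the members, the 10 genes most alike to their mean over the 6 libraries were Fbln7, Ets1, Spata13, Rgs5, Dgkq, Arhgap18, She, Srd5a1, Mpzl1 and Fam43a, with r of 0.98 to 0.99. Of these, Ets1 and Rgs5 stood in the lists above. These values rest on 6 libraries, of which the third control stands apart, and they are a description with no test.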

How the data were processed

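Per the labels' protocols, total RNA went into a stranded mRNA-seq kit and was sequenced on an Illumina instrument. Cutadapt, HISAT2, HTSeq and build mm10 were used, per the submitters' processing notes. Their versions, the annotation and the strand setting were not given in those notes or in the labels. The authors deposited FPKM per gene, 1 column per sample (21936 rows). Of rows that share a symbol, that with the highest mean was kept. FPKM times merged exon length (GENCODE M21) and a scale per library came out whole (tolerance 0.05) for 97.9 to 98.1% of low values, those of up to 50 reads, which recovered read numbers for 21302 genes. Positions are from the same annotation.

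The 10787 genes whose group mean reached 1 FPKM in knockouts or controls were tested in limma 3.58.1 (R 4.3.3) on log2(FPKM + 1), with trended variances and genotype as the only term. Fold changes on this scale understate those of low genes. On data simulated for this comparison (10787 genes, log2 change of 1 in 200), 82.3% were recovered. The changed genes were drawn from all genes tested. The members spread more widely in the controls than the median gene, so this share does not hold for them. Members and lists were chosen with earlier results of these data known, so counts and medians of lists are descriptions with no test. Named from each list were up to 4 genes with the highest mean, the genes most alike and Foxp4; others, such as Tek, Vwf, Sox7, Lyl1 and Itga2b, were named after values were seen. Alternatives were a pseudocount of 0.1, no filter, replicate number as a block, each library left out, median-of-ratios and upper-quartile scaling, voom on recovered reads and, added later, scaling to other endothelial genes.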

Additional observations from a re-analysis of the deposited data

How the results depend on the processing

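No member passed an adjusted p of 0.05 in limma under any alternative run. Members lower at an unadjusted p of 0.05 numbered 0 to 1 when 1 library was left out (1, Sox17, without the second control), and members higher 0 to 1 (1, Cdh5, without the third control). Genes called over all tested, 1 with every library, numbered 0 without a filter, 0 with the replicate number as a block, 0 with voom, 115 when scaled to the other pan-endothelial genes, and 0 to 5 when 1 library was left out. The scaled fit took the SE of each gene from the trend over all genes, not from its own spread. The 115 thus include genes of wide spread, such as the muscle gene Mylpf (SE 0.27 there, 0.85 under median-of-ratios scaling). The median of the members, -0.043, was 0.050 under median-of-ratios and 0.036 under upper-quartile scaling, and -0.23 to 0.22 when 1 library was left out (-0.23 without the first control, 0.22 without the third). The difference in summed FPKM, -9.50, was 3.12 under median-of-ratios scaling, 1.22 under upper-quartile scaling, 11.3 when scaled to the other pan-endothelial genes, and -29.8 to 28.8 when 1 library was left out (28.8 without the third control, 0.39 without the first knockout).

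Fitted log2 fold changes changed sign in several members when 1 library was left out. They ranged from -0.18 to 0.37 for Cldn5, -0.19 to 0.40 for Cdh5, -0.28 to 0.12 for Pecam1, -0.28 to 0.21 for Esam, -0.42 to 0.19 for Tie1, -0.093 to 0.28 for Emcn, -0.16 to 0.27 for Egfl7, -0.35 to 0.067 for Erg and -0.17 to 0.23 for Sox18. Sox18 had -0.010 with voom and Esam 0.032 when scaled to the other pan-endothelial genes. Sox17 stayed below 0 in every fit (-0.58 to -0.19), with -0.42 and an adjusted p of 0.30 with the replicate block. Deviations from the group means had correlations of 0.065, 0.027 and -0.25 between same-numbered libraries, and of -0.23 to 0.18 between the others. With 3 libraries per group these values cannot decide whether the numbers pair the samples. The cause of these shifts was not tested. Depth limits Sox17 most, with 161 to 411 reads per library.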

Other observations

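In the list of genes of vessel sprouting, Apln encodes the ligand apelin. Which cells of the whole tissue its transcript came from was not tested. Apln stood at 6.16, 8.30 and 4.22 FPKM in knockouts, against 2.03, 2.00 and 7.09 FPKM in controls. The limma fit gave it 0.75 as a log2 fold change (SE 0.40), at an adjusted p of 0.30. Leaving out the third control gave a log2 fold change of 1.22 with an adjusted p of 0.081 (SE 0.22). Scaling to the other pan-endothelial genes, chosen after the values were seen, gave 0.88 (SE 0.25, adjusted p = 0.038 in limma). That scaled fit took its SE from the trend over all genes, not from the spread of Apln itself. Its p-value therefore cannot decide whether Apln differed. Its receptor gene Aplnr stood at 5.25, 10.2 and 3.84 FPKM in knockouts, against 2.72, 2.48 and 16.3 FPKM in controls, and the third control was 6.25 times the mean of the other controls. Cxcr4, a chemokine receptor of tip cells and leukocytes, stood at 1.38, 1.79 and 1.54 FPKM in knockouts, against 2.59, 2.12 and 2.30 FPKM in controls, without overlap (log2 fold change -0.38, adjusted p = 0.11 in limma). Of all genes tested, 22.7% were lower without overlap and 17.1% were lower at an unadjusted p of 0.05. Plxnd1 (14.0 FPKM in knockouts and 12.5 FPKM in controls) and Nid2 (11.7 and 14.2 FPKM) overlapped between groups. Of the 8 genes of this list 6 were tested, with 1 lower and 0 higher in knockouts at an unadjusted p of 0.05 and a median of 0.057.

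Genes of cell division were low but had a similar order of libraries. The 6 of them summed to 3.77, 7.81 and 2.65 FPKM in knockouts, against 2.29, 2.69 and 6.41 FPKM in controls. The second knockout and the third control, the libraries that ranked second and first in most of the endothelial identity genes, were also the highest here. In which cells these transcripts lay was not tested.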
